A study of Mus musculus with 24 samples.

Results

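The genes described here carry peptide antigens to the cell surface on MHC class I molecules: B2m, H2-K1, H2-D1, Tap1, Tap2, Tapbp, Psmb8, Psmb9, Psmb10 and Nlrc5. They were taken from the expression table by gene symbol. All 10 were found among its 38215 genes, and all 10 were among the 27287 genes that passed a filter on low values. RNA had been sequenced from dorsal root ganglia, where sensory neurons with axons in the sciatic nerve have their somata. The mice were of 3 inbred strains, labelled C57, CAST and DBA, and the ganglia were either naive or taken 5 days after the sciatic nerve was crushed. Each of the 6 groups (naive C57, injured C57, naive CAST, injured CAST, naive DBA and injured DBA) held 4 libraries, 24 in all, which the series calls biological replicates. The sources used here do not give the age or sex of the mice. The treatment protocol speaks of sham surgery and the sample labels of naive tissue, so whether the controls were operated on is not settled.

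Class I molecules display peptides from inside the cell to CD8 T cells and natural killer cells. The proteasome cuts proteins into peptides, the TAP transporter moves the peptides into the endoplasmic reticulum, and tapasin holds an empty heavy chain at the transporter until a peptide is bound. Interferons raise the pathway, in part through IRF1, and NLRC5 acts as a transactivator at a shared set of promoter boxes. Class I expression is low in most resting neurons and is known to be inducible in neurons, glia and macrophages.

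Library totals recovered from the values ran from 51.38 to 145.42 M reads, with a median of 107.0 M. Injured C57 replicate 3 was the shallowest library. Psmb9 had the fewest reads among the members, 45 to 403 per library, and B2m had 5201 to 42141. As a check of the tissue, the 11 sensory neuron markers all passed the filter and summed to 502 to 761 FPKM in the 24 libraries. FPKM here stands for fragments per kilobase and per M reads, with the kilobase term equal to the genomic span of the gene, introns included. The level of one gene on this scale is therefore not read as higher or lower than that of another. Ratios between genes and sums over lists are used only to compare groups of libraries.

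Of the members, 7 lie in the MHC region of chromosome 17 (mm10, GENCODE M21). From the centromeric side these are Tapbp (chr17:33915899-33929292), H2-K1 (chr17:33996017-34000347), Psmb9 (chr17:34181987-34187764), Tap1 (chr17:34187553-34197225), Psmb8 (chr17:34197721-34201454), Tap2 (chr17:34203527-34216321) and H2-D1 (chr17:35262730-35267499). The others are B2m (chr2:122147686-122153083), Psmb10 (chr8:105935735-105938444) and Nlrc5 (chr8:94434356-94527272). Some of the exon sequence of these genes is not unique: 9.63% of the 50-base windows of H2-K1 and 12.8% of those of H2-D1 also occur in other class I heavy chain genes, so reads of the 2 classical heavy chains could be split or shared with their paralogs. Psmb8 shares 11.9% of its windows with other genes (11.6% with Gm20496 on the other strand), Tap2 shares 11.6% with overlapping genes, and Tapbp shares 23.2%, most of it with Gm19412. B2m and Psmb10 shared none. The sources used here do not say whether reads were counted by strand, so the values of these overlapping genes are uncertain to that extent.

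Promoter sequence is shown for B2m, H2-K1 and H2-D1, which together make the class I molecule and had the largest changes of the members in CAST on the log2(FPKM + 1) scale tested below. The sequences are the 250 bases before the RefSeq start (GRCm38.p6), 5′ to 3′ on the strand of the gene, at chr2:122147437-122147686 (plus strand), chr17:34000348-34000597 (minus strand) and chr17:35262844-35263093 (plus strand). Capitals mark GAAANNGAAA in B2m, GGGGATTCC in H2-K1 and H2-D1, and TGACG followed by ATTGG in all 3.
B2m: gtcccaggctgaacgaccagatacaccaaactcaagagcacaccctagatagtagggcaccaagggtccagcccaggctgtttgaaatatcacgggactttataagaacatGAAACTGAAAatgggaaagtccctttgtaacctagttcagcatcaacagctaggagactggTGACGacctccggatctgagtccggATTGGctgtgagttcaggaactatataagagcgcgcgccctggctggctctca
H2-K1: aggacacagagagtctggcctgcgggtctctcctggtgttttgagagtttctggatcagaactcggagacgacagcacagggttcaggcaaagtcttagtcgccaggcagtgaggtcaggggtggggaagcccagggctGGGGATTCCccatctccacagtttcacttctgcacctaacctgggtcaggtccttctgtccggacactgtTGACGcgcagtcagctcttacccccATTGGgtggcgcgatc
H2-D1: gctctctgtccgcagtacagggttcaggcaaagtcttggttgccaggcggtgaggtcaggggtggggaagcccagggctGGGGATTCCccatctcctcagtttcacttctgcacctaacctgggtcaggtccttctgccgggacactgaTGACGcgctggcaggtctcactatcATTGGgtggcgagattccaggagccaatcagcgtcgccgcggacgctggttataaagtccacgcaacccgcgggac

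The pair TGACG and ATTGG, the core letters of the X2 and Y boxes, stood 20 bases apart in each of the 3 promoters and began 78 bases before the start in B2m, 41 in H2-K1 and 101 in H2-D1. Searched on both strands with a gap of 8 to 30 bases, it was present in 249 of 32544 RefSeq windows of 300 bases (250 before and 50 after the start), or 0.765%. GGGGATTCC, a kappa B letter string, was present in 0.252% of windows, and GAAANNGAAA, the core of an interferon-stimulated response element, in 3.45%. Windows were at hand for 8 of the 10 members, not for Tap2 and Nlrc5. The windows of the other 5 members (Tap1, Tapbp, Psmb8, Psmb9 and Psmb10) held none of these 3 strings, which says only that the letters are not there. Those of Tap1 and Psmb9 overlap by 275 bases. These are matches of letters to the reference strain, not measured binding.

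After crush, all 10 genes were higher in CAST, 6 of 10 in DBA and 1 of 10 in C57. The test was limma on log2(FPKM + 1) with Benjamini-Hochberg adjustment over all genes tested and a threshold of 0.05. Crush moved much of the transcriptome, so these counts are read against the share of all tested genes called higher, which was 25.5% in CAST, 26.1% in DBA and 18% in C57 (46.8%, 49.7% and 38.3% in either direction, with 21.3%, 23.6% and 20.3% called lower). The median log2 change of the 10 genes was 0.49 in CAST, 0.18 in DBA and 0.07 in C57, against 0 over all genes tested in each strain. In whole ganglia, more cells of a type and more RNA per cell cannot be told apart.

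**Figure D1:**
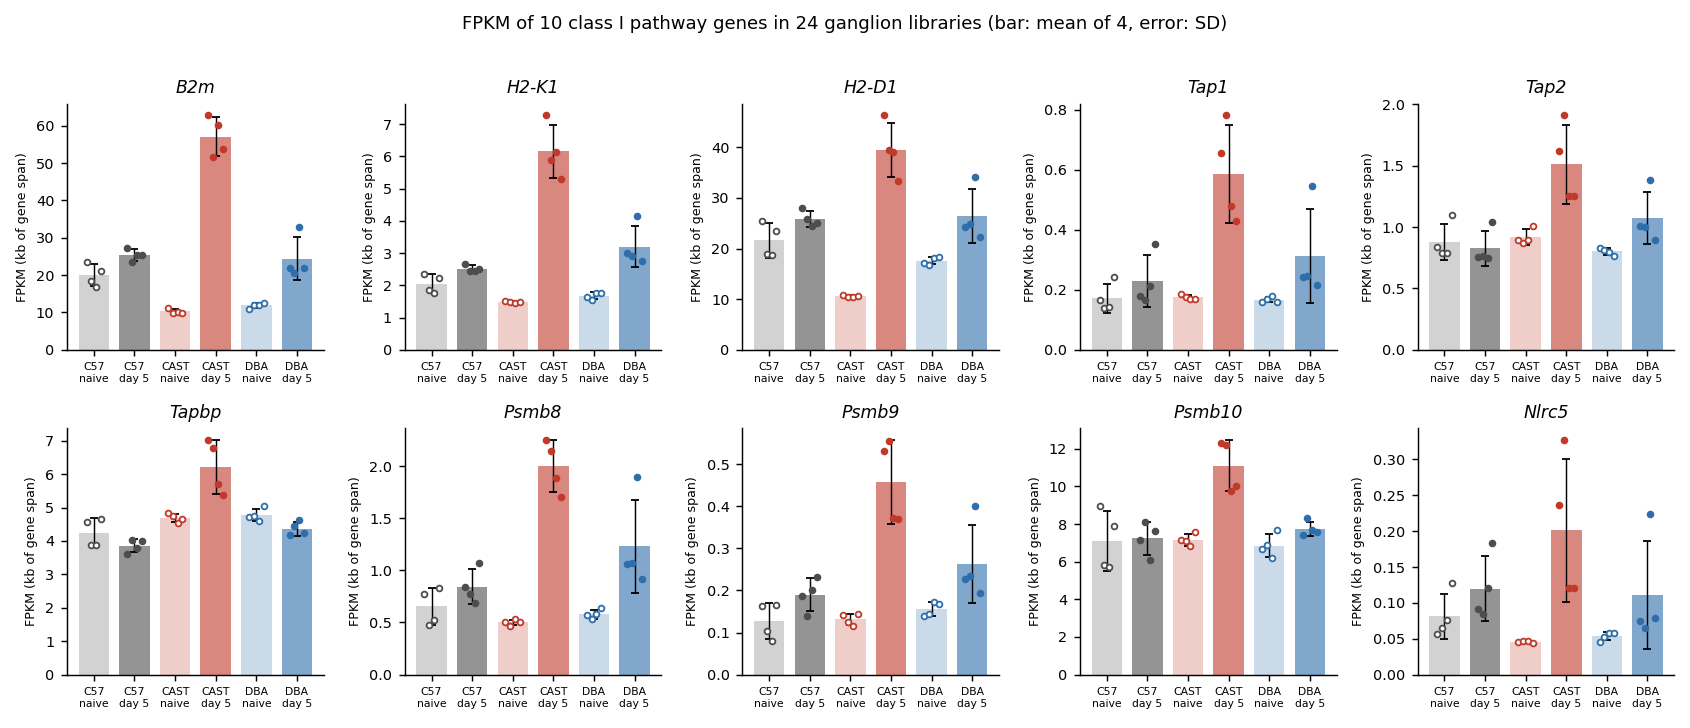
FPKM of each of the 10 genes in every library, by strain and condition. Points are libraries, bars are means of 4 and error bars are SD. Injured CAST has the highest mean in all 10 panels, with B2m at 51.7 to 62.8 FPKM against 9.8 to 11.2 in naive CAST.

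B2m encodes the light chain that every classical class I molecule needs. In CAST it stood at 11.2, 9.99, 10.2 and 9.8 FPKM in the naive libraries and at 62.8, 51.7, 60.2 and 53.7 in the injured ones. In DBA it stood at 11, 12.1, 12.1 and 12.6 before and at 22, 20.7, 32.9 and 21.9 after crush. In C57 it stood at 23.4, 18.3, 16.9 and 21.2 before and at 27.4, 23.4, 25.3 and 25.4 after. The injured and naive libraries were fully separate in CAST and DBA, while in C57 the highest naive library equalled the lowest injured one at the precision given. The CAST mean rose 5.54-fold (log2 change 2.36, SE 0.115, limma adjusted p = 1.24e-12), the DBA mean 2.04-fold (0.95, SE 0.115, adjusted p = 7.08e-07) and the C57 mean 1.27-fold (0.34, SE 0.115, adjusted p = 0.0238). The C57 call was lost without injured C57 replicate 1 (adjusted p = 0.071), naive C57 replicate 2 (0.0688) or naive C57 replicate 3 (0.0934).

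The heavy chain genes H2-K1 and H2-D1, which carry the peptide groove, followed B2m in the order of the strains. H2-K1 stood at 1.51, 1.48, 1.46 and 1.48 FPKM in naive CAST and at 7.27, 5.89, 6.12 and 5.31 in injured CAST. In DBA it went from 1.64, 1.54, 1.76 and 1.76 to 2.99, 2.91, 4.14 and 2.76, and in C57 from 2.35, 1.86, 1.75 and 2.22 to 2.67, 2.44, 2.44 and 2.51. Injured and naive libraries did not overlap in any strain for this gene, but the gap in C57 was narrow. H2-K1 rose 4.14-fold in CAST (log2 change 1.52, SE 0.0857, limma adjusted p = 1.14e-11) and 1.91-fold in DBA (0.64, SE 0.0857, adjusted p = 2.52e-06). In C57 the ratio was 1.23 and missed the threshold (adjusted p = 0.0592). It passed there without naive C57 replicate 1 (adjusted p = 0.0282), injured CAST replicate 1 (0.0388), injured CAST replicate 4 (0.0489) or injured DBA replicate 3 (0.0166), and with a pseudocount of 0.1 (0.0386), on the CPM scale (0.0257) and with voom (0.0342). It also passed without 3 libraries set apart in an earlier look at these data and named below (0.0448).

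H2-D1 stood at 10.9, 10.5, 10.5 and 10.6 FPKM in naive CAST and at 46.3, 39.4, 39 and 33.3 in injured CAST. The DBA libraries went from 17.2, 16.8, 18.1 and 18.3 to 24.2, 24.8, 34.1 and 22.3, and in C57 from 25.5, 18.9, 18.7 and 23.4 to 28.1, 25.8, 24.5 and 25.1. The groups were separate in CAST and DBA and overlapped in C57. H2-D1 rose 3.71-fold in CAST (log2 change 1.79, SE 0.113, limma adjusted p = 6.04e-11) and 1.5-fold in DBA (0.54, SE 0.113, adjusted p = 0.000447). The C57 ratio of 1.2 missed the threshold (adjusted p = 0.0761) and passed it without naive C57 replicate 1 (0.0224) or injured DBA replicate 3 (0.0288). It also passed without the 3 libraries set apart earlier (0.0308).

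Tap1 and Tap2 encode the partner subunits of the peptide transporter. Tap1 stood at 0.186, 0.177, 0.17 and 0.171 FPKM in naive CAST and at 0.658, 0.782, 0.479 and 0.428 in injured CAST, a 3.33-fold rise (log2 change 0.43, SE 0.0694, limma adjusted p = 3.32e-05). Tap2 stood at 0.892, 0.868, 0.895 and 1.01 and at 1.62, 1.91, 1.25 and 1.25, a 1.64-fold rise (0.38, SE 0.0793, adjusted p = 0.000485). In both genes every injured CAST library lay above every naive one, and injured replicates 1 and 2 lay above replicates 3 and 4. Because 1 FPKM is added before the logarithm, the log2 change understates genes at this level: on the log2(CPM + 0.5) scale the change of Tap1 in CAST was 1.45 (adjusted p = 9.27e-06).

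In DBA, Tap1 went from 0.161, 0.169, 0.179 and 0.161 FPKM to 0.244, 0.245, 0.548 and 0.215. All 4 injured libraries lay above the naive ones, with replicate 3 far above the rest, and the change missed the threshold on the log2(FPKM + 1) scale (ratio 1.87, limma adjusted p = 0.0589) but passed it on the CPM scale (0.65, adjusted p = 0.0173). It also passed with a pseudocount of 0.1 (adjusted p = 0.0266), with voom (0.034) and without injured C57 replicate 4 (0.0483), injured CAST replicate 2 (0.0395), injured CAST replicate 4 (0.0473) or injured DBA replicate 4 (0.0345). Tap2 in DBA went from 0.826, 0.815, 0.795 and 0.766 to 1.01, 1, 1.38 and 0.897, and its 1.34-fold rise was close to the threshold (adjusted p = 0.0441). That call was lost without any single one of the 8 DBA libraries but injured replicate 4, with adjusted p of 0.0575, 0.0526 and 0.184 without injured replicates 1, 2 and 3 and of 0.0641, 0.0683, 0.0747 and 0.0869 without naive replicates 1 to 4. It was also lost without naive CAST replicates 1 (0.0511), 2 (0.0504) or 3 (0.051), and with no filter (0.0607). The same held without the 3 libraries set apart earlier (0.0873). In C57, Tap1 (0.165, 0.138, 0.143 and 0.242 before, 0.181, 0.166, 0.214 and 0.354 after) and Tap2 (0.836, 0.79, 0.79 and 1.1 before, 0.756, 0.763, 0.748 and 1.04 after) overlapped between the conditions and did not pass. Replicate 4 was the highest C57 library in both conditions for both genes.

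Tapbp encodes tapasin, the chaperone that bridges the transporter and the heavy chain. It stood at 4.83, 4.75, 4.55 and 4.65 FPKM in naive CAST and at 7.02, 6.78, 5.7 and 5.39 in injured CAST, a 1.32-fold rise (log2 change 0.34, SE 0.0634, limma adjusted p = 0.000171). DBA libraries went from 4.71, 4.75, 4.61 and 5.04 to 4.17, 4.45, 4.64 and 4.24, and in C57 from 4.57, 3.88, 3.87 and 4.66 to 3.62, 4.03, 3.79 and 4. Tapbp was separate between the conditions in CAST and overlapped in the other strains, where its ratios of 0.915 in DBA (adjusted p = 0.183) and 0.909 in C57 (adjusted p = 0.202) did not pass.

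Psmb8, Psmb9 and Psmb10 encode the inducible catalytic subunits that take the places of Psmb5, Psmb6 and Psmb7 in the immunoproteasome. Psmb8 stood at 0.501, 0.465, 0.529 and 0.508 FPKM in naive CAST and at 2.25, 2.15, 1.89 and 1.7 in injured CAST. In DBA it went from 0.571, 0.53, 0.578 and 0.638 to 1.06, 1.07, 1.9 and 0.914, and in C57 from 0.777, 0.48, 0.527 and 0.834 to 0.84, 0.771, 0.691 and 1.07. The conditions were separate in CAST and DBA and overlapped in C57. Psmb8 rose 3.99-fold in CAST (log2 change 0.99, SE 0.1, limma adjusted p = 5.89e-08) and 2.13-fold in DBA (0.48, SE 0.1, adjusted p = 0.000423), and its C57 ratio of 1.29 did not pass (adjusted p = 0.235).

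Psmb9 stood at 0.142, 0.124, 0.115 and 0.144 FPKM in naive CAST and at 0.532, 0.555, 0.373 and 0.37 in injured CAST, a 3.49-fold rise (log2 change 0.36, SE 0.0454, limma adjusted p = 1.17e-06). In DBA it went from 0.14, 0.143, 0.172 and 0.168 to 0.228, 0.235, 0.401 and 0.193, a 1.7-fold rise (0.13, SE 0.0454, adjusted p = 0.0256). Each injured library lay above all naive ones in both strains. The DBA call was lost without injured DBA replicate 3 (adjusted p = 0.126), naive DBA replicate 1 (0.0578) or naive DBA replicate 2 (0.056), and with only the DBA groups fitted (0.0613). In C57 it went from 0.163, 0.104, 0.0795 and 0.166 to 0.187, 0.139, 0.2 and 0.233, with overlap and no call (adjusted p = 0.201).

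Psmb10 had the smallest ratio of injured to naive of the 3 inducible subunits in each strain. It stood at 7.15, 7.08, 6.82 and 7.59 FPKM in naive CAST and at 12.3, 12.2, 9.76 and 10 in injured CAST, a 1.55-fold rise with no overlap (log2 change 0.56, SE 0.11, limma adjusted p = 0.000255). Those of DBA went from 6.69, 6.88, 6.17 and 7.67 to 7.41, 8.3, 7.69 and 7.57, and in C57 from 8.96, 5.8, 5.7 and 7.9 to 7.13, 8.13, 6.09 and 7.61. The conditions overlapped in both, and neither change passed (ratio 1.13, adjusted p = 0.255 in DBA, and ratio 1.02, adjusted p = 0.815 in C57).

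The ratio of estimated reads of each inducible subunit to its constitutive partner was taken within a library. Scaling between libraries thus cancels. Psmb8 over Psmb5 had geometric means of 0.0387 before and 0.142 after crush in CAST (3.68-fold), of 0.0436 and 0.0926 in DBA (2.12-fold) and of 0.0399 and 0.0531 in C57 (1.33-fold). The injured over naive fold of Psmb9 over Psmb6 was 2.99 in CAST, 1.54 in DBA and 1.44 in C57. That of Psmb10 over Psmb7 was 1.27 in CAST and 0.929 in C57, and in DBA the ratio was 0.211 before and 0.217 after. Libraries of the conditions did not overlap for the 3 CAST ratios and for Psmb8 over Psmb5 in DBA. Those 4 reached an exact two-sided permutation p of 0.0286, the smallest that 4 against 4 libraries can give, and 0.0643 after adjustment over the 9 ratio tests, so no ratio passed 0.05. Psmb5 and Psmb6 were not called in any strain, and Psmb7 was called in CAST (log2 change 0.18, limma adjusted p = 0.000847).

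**Figure D2:**
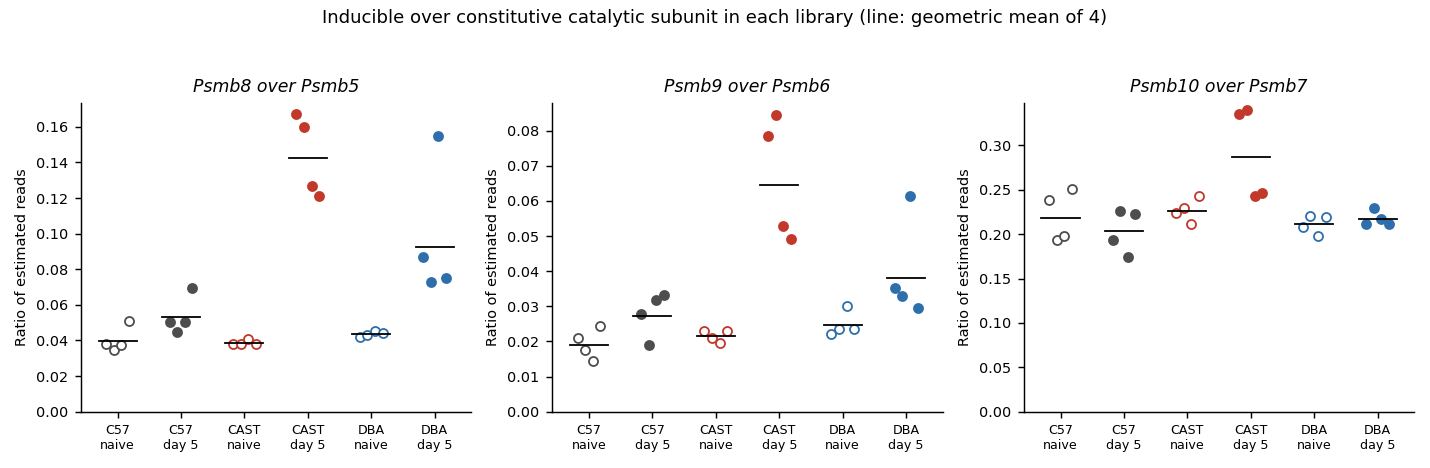
Ratio of estimated reads of each inducible proteasome subunit to its constitutive partner in every library. Points are libraries and lines are geometric means of 4. The Psmb8 over Psmb5 ratio is 0.121 to 0.167 in injured CAST and 0.0378 to 0.0411 in naive CAST.

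Nlrc5 encodes the class I transactivator. It stood at 0.0452, 0.0469, 0.0469 and 0.0445 FPKM in naive CAST and at 0.236, 0.327, 0.121 and 0.121 in injured CAST. In DBA it went from 0.0456, 0.0525, 0.0575 and 0.0577 to 0.0746, 0.0649, 0.224 and 0.0791, and in C57 from 0.057, 0.0648, 0.0766 and 0.127 to 0.0921, 0.0844, 0.121 and 0.183. The conditions were separate in CAST and DBA and overlapped in C57. Its long span makes the FPKM small, but the reads were 372 to 3809 per library. Nlrc5 rose 4.39-fold in CAST (log2 change 0.2, SE 0.0467, limma adjusted p = 0.00159, and 1.89 on the CPM scale, adjusted p = 0.000157). The ratios of 2.07 in DBA (adjusted p = 0.205) and 1.48 in C57 (adjusted p = 0.44) did not pass on either scale.

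**Figure D3:**
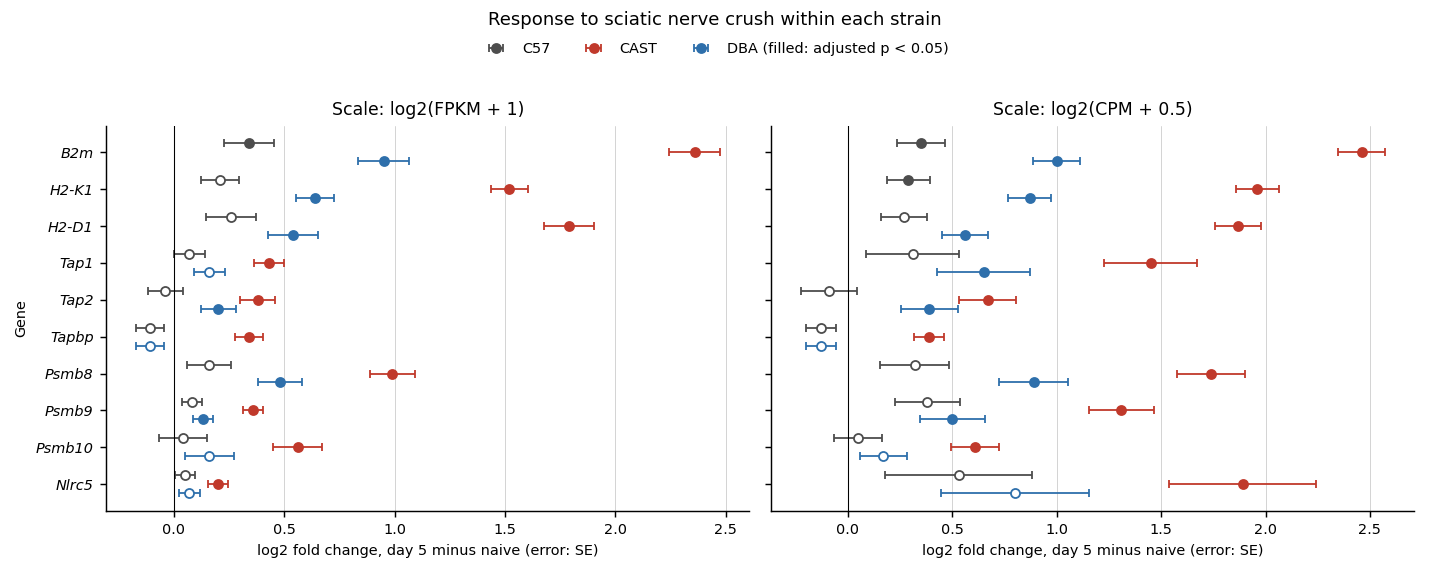
Log2 change after crush with its SE for each gene and strain, on the log2(FPKM + 1) scale at left and the log2(CPM + 0.5) scale at right. Filled points passed an adjusted p of 0.05. Changes of the low genes Tap1, Psmb9 and Nlrc5 in CAST are 0.43, 0.36 and 0.2 at left and 1.45, 1.31 and 1.89 at right.

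Libraries of one group differed, and they did so across genes. All 10 genes lay above the highest naive library in each of the 4 injured CAST libraries, with median log2 ratios to the naive mean of 2.07, 2.04, 1.48 and 1.45 in replicates 1 to 4. Replicates 1 and 2 were both higher than 3 and 4 for H2-D1, Tap1, Tap2, Tapbp, Psmb8, Psmb9, Psmb10 and Nlrc5, but not for B2m and H2-K1. In injured DBA the medians were 0.51, 0.52, 1.33 and 0.35, with 8, 9, 9 and 8 genes above the naive libraries. For every gene but Psmb10, replicate 3 was the highest of the 4. Without it, the DBA responses of B2m (log2 change 0.80), H2-K1 (0.54), H2-D1 (0.41) and Psmb8 (0.35) still passed, and Tap2 (0.13) and Psmb9 (0.08) did not. In injured C57 the medians were 0.27, 0.16, 0.22 and 0.32, with 5, 3, 3 and 6 genes above the naive libraries. The share of all tested genes above the naive libraries was not computed, so these counts only describe the members.

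**Figure D4:**
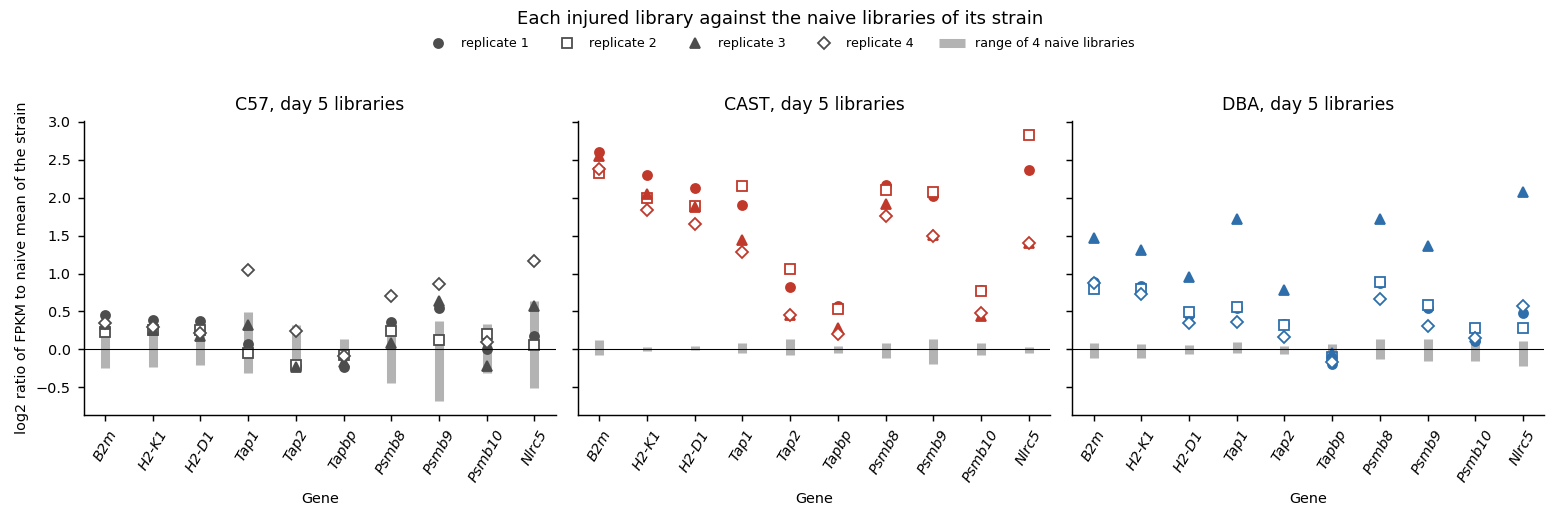
Log2 ratio of each injured library to the naive mean of its strain, for each gene. Grey bars span the naive libraries. Injured CAST libraries sit above the grey bar for all 10 genes, and injured DBA replicate 3 sits above the other 3 DBA libraries for 9 of them.

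The difference between strains in the response to crush was tested as an interaction in the same limma fit. The CAST response exceeded that of C57 for 9 of 10 genes, where 7.91% of all genes tested were called in that direction (13% in either, 5.08% in the other). The differences in log2 change were 2.02 for B2m (SE 0.163, adjusted p = 2.79e-08), 1.53 for H2-D1 (adjusted p = 9.03e-07), 1.31 for H2-K1 (adjusted p = 1.96e-07) and 0.84 for Psmb8 (adjusted p = 0.000313). Those of Psmb10 (0.52, adjusted p = 0.0307), Tapbp (0.44, 0.00168), Tap2 (0.42, 0.0152), Tap1 (0.36, 0.0177) and Psmb9 (0.29, 0.0041) were smaller, and Nlrc5 did not pass (0.15, 0.178). The Psmb10 call was lost without injured C57 replicate 3 (adjusted p = 0.0653), naive C57 replicates 1 (0.0562) or 4 (0.0666), injured CAST replicates 1 (0.0665) or 2 (0.0625), or naive CAST replicates 2 (0.0527) or 3 (0.0574). It was also lost when only the 4 groups of the contrast were fitted (0.086) and without the 3 libraries set apart earlier (0.102). The Tap1 call was lost with voom (0.0507).

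The CAST response exceeded that of DBA for 6 of 10 genes, against 7.99% of all genes (15.5% in either direction, 7.46% in the opposite one). These were B2m (1.41, limma adjusted p = 2.51e-06), H2-D1 (1.25, 9.08e-06), H2-K1 (0.88, 2.47e-05), Psmb8 (0.51, 0.0162), Tapbp (0.44, 0.00149) and Psmb9 (0.24, 0.0144). Tap1 (0.26, adjusted p = 0.079), Psmb10 (0.4, 0.0917), Tap2 (0.18, 0.341) and Nlrc5 (0.12, 0.262) did not pass. Tap1 passed without injured CAST replicate 4 (adjusted p = 0.0353) or injured DBA replicate 3 (0.00483), and Psmb10 without naive C57 replicate 1 (0.0454) or with only the groups of the contrast (0.0167). Psmb10 also passed without the 3 libraries set apart earlier (0.0234). The CAST comparisons share the CAST libraries and are not independent of each other.

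The DBA response exceeded that of C57 for 2 of 10 genes, B2m (0.61, limma adjusted p = 0.0213) and H2-K1 (0.43, adjusted p = 0.0292), where 5.31% of all genes were called in that direction (8.89% in either, 3.58% in the opposite one). Both calls were lost without 3 libraries set apart in an earlier look at these data, naive DBA replicate 3, naive C57 replicate 1 and injured C57 replicate 3 (0.0767 for B2m and 0.0919 for H2-K1), and when only the 4 groups were fitted (0.0609 and 0.0505). H2-K1 was also lost without injured C57 replicates 2 (0.0551) or 3 (0.0508), naive C57 replicates 1 (0.0565) or 4 (0.0618), or naive DBA replicates 1 (0.0533) or 2 (0.0631).

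Before injury, CAST had lower measured FPKM than C57 for the 3 genes that encode the class I molecule. Naive CAST was lower than naive C57 for 3 of 10 genes, B2m (0.517 of the C57 mean, limma adjusted p = 2.57e-06), H2-D1 (0.492, 7.75e-07) and H2-K1 (0.725, 0.00911), where 19.7% of all genes were called lower (43.6% in either direction). Naive CAST was lower than naive DBA for H2-D1 (0.604, adjusted p = 5.17e-05), 1 of 10 against 20.4% called lower (44% in either). Naive DBA was lower than naive C57 for B2m (0.599, adjusted p = 0.000136), 1 of 10 against 10.1% (21.1% in either). None of the transporter, tapasin, immunoproteasome or Nlrc5 comparisons in naive ganglia passed. The H2 genes are polymorphic and the reads were aligned to 1 reference, so a level difference between strains in H2-K1 or H2-D1 and a difference in alignment cannot be told apart. H2-D1 in naive DBA against naive C57 passed without injured DBA replicate 3 (0.0406). With only its own groups fitted, naive CAST against naive DBA also passed for B2m (0.0204), H2-K1 (0.0241), Tap2 (0.0246) and Psmb8 (0.0341).

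In the order of the 6 group means, injured CAST was first for all 10 genes. Its libraries lay wholly above the next group for B2m, H2-K1, Tapbp and Psmb10 and overlapped it for the other 6. Naive CAST was last for B2m, H2-K1, H2-D1, Psmb8 and Nlrc5, and lay wholly below the group before it for H2-K1, H2-D1 and Psmb8. The shares of all tested genes with such an order or separation were not computed, so these counts only describe the members.

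Companion lists place these genes in the wider pathway. Of all genes tested, 25.5% were called higher and 21.3% lower in CAST. These shares were 26.1% and 23.6% in DBA, and 18% and 20.3% in C57. Of the other class I heavy chain genes, 11 of 12 tested rose in CAST, 10 in DBA and 4 in C57. H2-M3, named for its direction after its values were seen, fell by 0.19 in C57 (limma adjusted p = 0.0219) and by 0.16 in DBA (adjusted p = 0.0415) on the log2 scale. The CAST response exceeded that of C57 in 9 genes of the list and that of DBA in 7, against 7.91% and 7.99% of all genes. H2-Q4 rose from 2.14 ± 0.119 to 11.6 ± 1.96 FPKM (SD, n = 4) in CAST, 5.4-fold, and H2-T23, which encodes Qa-1, the ligand of an inhibitory natural killer receptor, rose 5.85-fold. H2-Q6 rose 5.17-fold and H2-Q10 4.46-fold. These genes share sequence with H2-K1 and H2-D1. Of 12 genes for peptide trimming and loading, 7 rose in CAST, 5 in DBA and 2 in C57, where 2 fell. On the log2(FPKM + 1) scale the 4 largest in CAST were Tapbpl (0.19), a tapasin relative, and the proteasome activators Psme3 (0.18), Psme1 (0.14) and Psme2 (0.13), each under 1.5-fold. By ratio the largest was Ubd, a ubiquitin-like modifier induced by interferon gamma, at 0.00948 ± 0.00476 FPKM before and 0.045 ± 0.0136 after crush (SD, n = 4, 4.74-fold, limma adjusted p = 0.0015), a gene named after its values were seen. The list of 15 constitutive proteasome genes held 14 subunits of the 20S core and Pomp, its maturation chaperone. Of the list, 6 rose in CAST, 2 in DBA (Psma7 and Pomp) and 1 in C57 (Psma7), where Psma3 fell. No gene of the list passed the test for a difference between strains in its response. Of all genes, 13% passed it for CAST against C57, 15.5% for CAST against DBA and 8.89% for DBA against C57. The largest changes of the list in CAST were those of Psma7 and Psmb4 (0.23 each), Psmb3 (0.19) and Psmb7 (0.18).

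Of 19 regulators of class I transcription, 13 rose and 3 fell in CAST, 11 rose and 3 fell in DBA, and 8 rose and 3 fell in C57. Over all genes tested, 25.5%, 26.1% and 18% were called higher in these strains, and 21.3%, 23.6% and 20.3% lower. Irf7, which carries the interferon response forward, rose from 0.0525 ± 0.0047 to 1.6 ± 0.653 FPKM in CAST (30.6-fold, limma adjusted p = 4.87e-09), with a response above that of C57 (adjusted p = 9.1e-06) and DBA (adjusted p = 1.49e-05). Socs1, a feedback inhibitor of cytokine signalling, rose in CAST (4.1-fold) and to a like size in DBA (3.9-fold), with a difference between these responses of -0.01 in log2 change (SE 0.175, adjusted p = 0.978). Stat2 rose 2.55-fold in CAST (adjusted p = 2.25e-07). Irf1 rose in CAST (1.82-fold, adjusted p = 0.00178) and DBA (1.52-fold, 0.0235). Ciita, the class II transactivator, rose 2-fold in DBA (adjusted p = 2.85e-05) and 1.51-fold in CAST (0.0412), and Rfx5, part of the X box complex, rose 1.31-fold in CAST (0.00108).

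Of 7 tested interferon and receptor genes, 3 rose and 1 fell in CAST, 5 rose in DBA and 3 rose in C57. Over all genes tested, 25.5%, 26.1% and 18% were called higher in these strains, and 46.8%, 49.7% and 38.3% in either direction. The interferon and receptor counts therefore only describe the list. Ifng and Ifnb1 were not tested. Ifng had at most 4 estimated reads in a library. It was listed at 0 in all 4 naive CAST, all 4 naive C57 and 3 of 4 naive DBA libraries. After crush it was at 0 in 2 of 4 C57 libraries, in 1 of 4 DBA libraries and in none of the CAST ones. Of 7 tested receptors of class I molecules and their signalling partners, 6 rose in each strain. Tyrobp, an adapter of myeloid and natural killer receptors, went from 0.593 to 3.5 FPKM in CAST, 5.91-fold, with a rise of 4.49-fold in DBA and of 3.51-fold in C57. Fcer1g rose 6.46-fold, Pirb 7.19-fold and Cd8a 6.24-fold in CAST. The matching ratios were 5.07, 6.04 and 5.77 for DBA, and 3.77, 3.33 and 2.38 for C57. Despite its larger ratio, the log2 response of Pirb was lower in CAST than in DBA (difference -0.11, limma adjusted p = 0.00598). That of Tyrobp (0.31, 0.0199) and Cd8a (0.02, 0.00779) was higher, and Fcer1g did not pass (0.15, 0.234). Cd8a was barely detected, with a log2 change of 0.01 in DBA and 1 of 4 naive DBA libraries at 0.

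**Figure D5:**
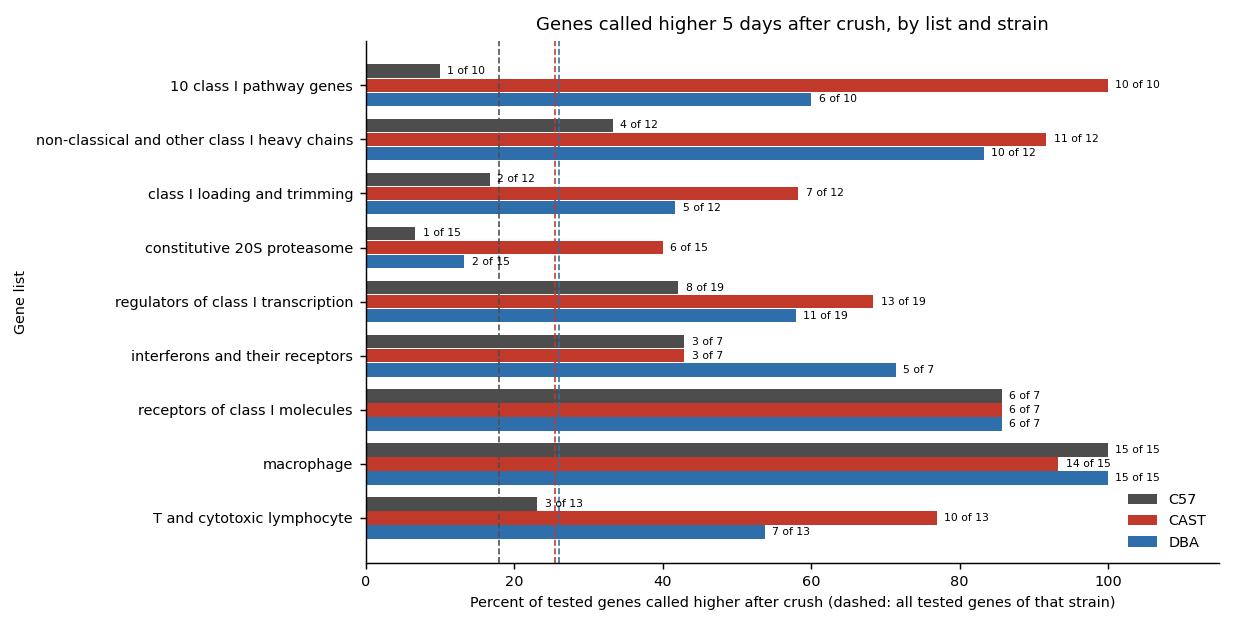
Percent of tested genes called higher after crush, by list and strain. Dashed lines give the percent over all genes tested, 18 in C57, 25.5 in CAST and 26.1 in DBA. The members reach 10, 100 and 60 percent in C57, CAST and DBA.

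Markers of other cells moved with injury too. Of all genes tested, 18% in C57, 26.1% in DBA and 25.5% in CAST were called higher. All 15 macrophage markers rose in the C57 and DBA strains, as did 14 of the 15 in CAST. Their summed level went from 9.47 to 12.9 FPKM in naive C57 to 42.8 to 51.1 in injured C57, from 8.18 to 11 to 53.5 to 73.6 in CAST, and from 10.4 to 17.2 to 58.9 to 70.6 in DBA. Injured CAST and injured DBA overlapped in the macrophage sum. As for the members, B2m, H2-K1, Tapbp and Psmb10 did not overlap between these groups, and H2-D1, Tap1, Tap2, Psmb8, Psmb9 and Nlrc5 did. The share of all tested genes without overlap was not computed, and the part of macrophages in these values was not tested. C1qa rose most in CAST (11.6-fold, against 6.35-fold in DBA, adjusted p of the difference 0.000421, and 5.28-fold in C57, adjusted p 8.22e-06), and C1qb, C1qc and Lyz2 rose 10.5-fold, 11.5-fold and 4.72-fold in CAST. The CAST response exceeded that of C57 in 7 macrophage markers and was below it in 2, against 7.91% and 5.08% of all genes. The log2 response in CAST exceeded that of DBA in 5 (Aif1, C1qa, C1qb, C1qc and Cx3cr1) and was below it in 2 (Mrc1 and Fcgr3). Of all genes, 7.99% and 7.46% were called in these directions. The ratio of Mrc1 was 3.24 in CAST and 5.74 in DBA. That of Fcgr3 was 6.32 and 6.12, so its lower log2(FPKM + 1) change did not come with a lower ratio.

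Of 13 tested T and cytotoxic lymphocyte markers, 10 rose in CAST, 7 in DBA and 3 in C57, where 1 fell. Their sums were 0.261 to 0.291 FPKM in naive and 0.464 to 0.797 in injured CAST, 0.152 to 0.227 and 0.31 to 0.56 in DBA, and 0.151 to 0.311 and 0.301 to 0.533 in C57. Gzmb, a granule protease of killer cells, was listed at 0 in all 4 naive CAST, 3 of 4 naive DBA and 2 of 4 naive C57 libraries and reached 0.0947 ± 0.0177 FPKM in injured CAST. Nkg7 rose 3.02-fold in CAST. Injured DBA replicate 3, the library with the highest class I values of its group, had a T and cytotoxic sum of 0.56 FPKM against 0.31 to 0.339 in the other 3 and a macrophage sum of 66.8, inside their range. The other strains did not share this. In injured CAST the T and cytotoxic sum was highest in replicate 3 (0.797), and the median log2 ratio of the members in replicate 1 (2.07). In injured C57 that sum was highest in replicate 1 (0.533), and the median in replicate 4 (0.32). Of the other marker lists in CAST, 6 of 7 rose for dendritic cells, 5 of 7 for endothelium and 2 of 7 for neutrophils. For satellite glia and Schwann cells 4 of 10 rose and 1 fell, and for sensory neurons 2 of 11 rose and 8 fell. Of 5 B cell markers, 1 fell. Over all genes tested, 25.5% were called higher and 21.3% lower in CAST, 26.1% and 23.6% in DBA, and 18% and 20.3% in C57. For the same lists in the order given, B cells aside, the numbers that rose were 5, 4, 2, 5 and 2 in DBA and 5, 0, 2, 3 and 2 in C57. Of sensory neuron markers 8 fell in DBA and 7 in C57, and of dendritic cell markers 1 fell in each. Of B cell markers, 1 fell in DBA and 1 rose in C57. The part of these cells in the class I values was not tested.

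Outside the members and lists, the genes whose deviations from naive were most like the mean of the members over the 24 libraries were Gm20496 (Pearson r 0.984), Gbp3 (0.982), Oasl2 (0.981), H2-Q1 (0.972) and Gm12185 (0.972), among 27132 genes compared. These are descriptions over libraries that share strain and injury. Gm20496 overlaps Psmb8 and Tap2 on the opposite strand. Gbp3, an interferon-inducible GTPase, went from 0.173 ± 0.0255 to 0.896 ± 0.261 FPKM in CAST, from 0.0801 ± 0.00727 to 0.246 ± 0.144 in DBA and from 0.181 ± 0.049 to 0.233 ± 0.0888 in C57. Oasl2, an interferon-induced antiviral gene, went from 0.131 ± 0.0208 to 1.3 ± 0.391, from 0.42 ± 0.0209 to 0.764 ± 0.133 and from 0.838 ± 0.115 to 0.981 ± 0.0744 in the same strains. H2-Q1, another class I heavy chain gene, went from 1.1 ± 0.0591 to 4.2 ± 0.761 in CAST, from 1.01 ± 0.0372 to 1.74 ± 0.288 in DBA and from 0.515 ± 0.0825 to 0.66 ± 0.0711 in C57 (SD, n = 4 throughout).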

How the data were processed

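Total RNA of dorsal root ganglia from 24 samples was sequenced. Reads were aligned with STAR 2.3.0 to mm10, per the submitters' processing notes; the counting tool, its annotation and its strand setting: not given in the sources used here. Per gene, the authors deposited FPKM values for 38215 genes, and the 24 sample files held the same values as the series table. The steps between low FPKM values of the deposited table gave the library totals and the reads behind each value: 67.9% of values of 0.5 to 100 reads were whole within 0.05 reads, against 10.0% by chance, for the 95.1% of genes with a span in GENCODE M21.

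A filter on low values asked for 10 or more estimated reads in 4 or more libraries (FPKM of 0.1 or more where no span was known). It kept 27287 of 38215 genes and removed 10928. Groups were taken from the sample labels. log2(FPKM + 1) was fitted with limma 3.58.1 (statmod 1.5.0, R 4.3.3) as 6 group means with trend and robust empirical Bayes, two-sided, with Benjamini-Hochberg adjustment within each of 9 contrasts and a threshold of 0.05. The fit was tested on simulated data. Subunit ratios were compared by exact two-sided permutation. Other steps used Python 3.11.15, numpy 2.4.6, scipy 1.17.1 and matplotlib 3.10.9. Promoter windows are from RefSeq, GRCm38.p6.

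The members, companion lists and cell type markers were chosen with earlier results of these data known. Named are all 10 members, of each list at most the 4 genes with the largest absolute log2 change among those called in CAST, Psmb5, Psmb6, Psmb7, Irf1, Rfx5, Ciita, and the 5 genes most like the members by Pearson correlation. Named outside this rule, for their calls or values, are H2-M3, Ubd, Psma3, Pomp, Ifng, Ifnb1, Aif1, Cx3cr1, Mrc1 and Fcgr3. A further gene that the rule names is not reported here. The labels do not tie the libraries to separate animals, so p-values measure the spread between these samples, which may be technical. Alternatives were a pseudocount of 0.1, log2(CPM + 0.5), no filter, upper-quartile scaling, voom on estimated reads, only the groups of a contrast, a replicate block, leaving out 3 libraries and leaving out each library. The other strains of the design were not analysed here.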

Additional observations from a re-analysis of the deposited data

Results flagged for a closer look

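In injured DBA, replicate 3 stood far above the other 3 libraries for B2m (32.9 FPKM), H2-K1 (4.14), Tap1 (0.548), Psmb8 (1.9) and Nlrc5 (0.224). In C57, replicate 4 stood far above the rest for Tap2 in injured (1.04 FPKM) and naive ganglia (1.1). A library stood apart by Dixon's criterion in 7 of 60 groups of 4 tested, where chance gives about 1 in 20.

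The response to crush differed between strains by the interaction test in limma. CAST exceeded C57 in log2 change by 2.02 for B2m, 1.31 for H2-K1, 1.53 for H2-D1, 0.36 for Tap1, 0.42 for Tap2, 0.44 for Tapbp, 0.84 for Psmb8, 0.29 for Psmb9 and 0.52 for Psmb10. CAST exceeded DBA by 1.41 for B2m, 0.88 for H2-K1, 1.25 for H2-D1, 0.44 for Tapbp, 0.51 for Psmb8 and 0.24 for Psmb9. DBA exceeded C57 by 0.61 for B2m and 0.43 for H2-K1.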

How the results depend on the processing

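Of 90 gene values (10 genes in 9 contrasts), 39 passed the threshold; 32 of these kept their direction and call in all 32 settings, 7 lost the call in at least 1 and 0 changed sign. Of the 51 others, 10 gained a call and 12 changed sign in at least 1 setting. The number of members called in C57 was 2 with a pseudocount of 0.1, on the CPM scale and with voom, and 3 without the 3 libraries set apart earlier. For the DBA against C57 responses it was 0 with only the groups of the contrast and 0 without those 3 libraries. For naive CAST against naive DBA it was 5 with only its groups, 1 higher and 4 lower. Leaving out 1 library at a time gave 0 to 3 members called in C57, 10 in CAST, 4 to 7 in DBA, 8 to 9 for CAST against C57, 6 to 7 for CAST against DBA, 1 to 2 for DBA against C57 and 1 to 2 for naive DBA against naive C57. Sign changes, all of values that did not pass, were as follows. With upper-quartile scaling, Tapbp for DBA against C57 was -0.001, and naive CAST against naive C57 was -0.003 for Tap1, -0.003 for Psmb9 and -0.025 for Psmb10. Without the 3 libraries, DBA against C57 was -0.048 for Tapbp and -0.104 for Psmb10, and Psmb10 in naive DBA against naive C57 was 0.124. Leaving out 1 library, the C57 response ran from -0.095 to 0.014 for Tap2 and from -0.043 to 0.148 for Psmb10. DBA against C57 ran from -0.036 to 0.037 for Tapbp, from -0.001 to 0.077 for Psmb9 and from -0.024 to 0.05 for Nlrc5. Naive CAST against naive C57 ran from -0.008 to 0.034 for Tap1, from -0.016 to 0.021 for Psmb9 and from -0.051 to 0.14 for Psmb10. Naive CAST against naive DBA ran from -0.034 to 0.002 for Tapbp, and naive DBA against naive C57 from -0.018 to 0.024 for Tap1 and from -0.109 to 0.081 for Psmb10. The cause was not tested. The share of higher calls over all genes moved with upper-quartile scaling from 54.9% to 44.8% for naive CAST against naive C57 and from 60.9% to 50.9% for CAST against C57, and with voom from 59.8% to 48.6% for DBA against C57. Replicate numbers did not pair the samples: same-number correlations ran from -0.207 to 0.232, 2 pairs were over 0.1, and 3 of 12 injured libraries correlated best with their own number. With the replicate block, members called were 1 in C57, 10 in CAST, 5 in DBA, 9 for CAST against C57, 6 for CAST against DBA and 2 for DBA against C57, and Tap2 in DBA had an adjusted p of 0.0649. For the ratios, the smallest p the exact test can give was 0.0571 with 1 library left out, and with the block the lowest adjusted value was 0.161, so no ratio test passed there.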
